A study of Mus musculus with 7 samples.

Results

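The genes described here build the actin cytoskeleton of the cell and anchor it at focal adhesions. They were 51 genes chosen by symbol for these roles, of the 55484 genes listed in the count table, and they were compared between mouse embryonic fibroblasts (MEFs, fibroblasts grown from mouse embryos, 4 libraries) and mouse embryonic stem cells (mESCs, pluripotent cells of the early embryo grown in culture, 3 libraries). The choice of genes was made with earlier results of these data known. The study gives a C57/Bl6 background for its MEFs and mESCs in the methods of its chromatin accessibility (ATAC-seq) libraries. Its methods for the RNA libraries name no strain. The labels give no treatment, age or passage for either cell type. Gene expression was measured by RNA sequencing from the 3′ end of polyadenylated transcripts, with molecular identifiers, so a count stands for a transcript end and not for reads along the gene. The study describes its transcriptional data as biological replicates, but gives fewer of them for MEFs than there are MEF libraries here. Which of the MEF libraries it meant is not stated. The labels do not say whether the libraries of a cell type came from separate cultures, so the p-values measure the spread between these libraries.

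The MEF libraries held 6528643 to 11441278 counts on genes and the mESC libraries 7462710 to 8193825. Libraries are named by these totals, and values per library are given in the order of 11441278, 7312679, 9176467 and 6528643 counts for MEFs and 8193825, 8057985 and 7462710 for mESCs. Levels are counts per 1000000 (CPM) over library sizes scaled by edgeR's TMM method. The extraction text in the labels speaks of blood stem cells of young and aged mice, whereas the cell type labels say MEF and mESC. All 10 pluripotency markers listed were higher in mESCs (median log2 fold change 7.0), and all 10 fibroblast markers were lower (median log2 fold change -6.64), among them Thy1, with 325 to 386 CPM in MEFs and 6.24 to 7.79 CPM in mESCs. For its ATAC-seq the study sorted the cells by surface proteins that included THY1 and EPCAM. Whether the RNA came from cells sorted in this way is not stated. If it did, Thy1 and Epcam are no independent check of the labels. Of 10 blood markers, 5 had too few counts to be tested, 2 (Cd34 and Cd53) were lower in mESCs and 3 did not pass the test. Of 7 epithelial markers, Cdh1 and Epcam were higher and Krt18 and Krt19 lower in mESCs. Of 5 endothelial markers, Pecam1 was higher, and of 6 skeletal muscle markers, Actc1 was lower. All 5 smooth muscle markers were lower, and Acta2, the actin of smooth muscle and of activated fibroblasts, stood at 4665 to 5587 CPM in MEFs and 22.1 to 34.1 CPM in mESCs.

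Actin monomers assemble into filaments that crosslinking proteins bundle and that myosin II pulls on. Integrins hold the cell to its matrix, and an adaptor layer of talin, vinculin, paxillin, zyxin and others ties them to these filaments in focal adhesions. Cultured fibroblasts are known for thick contractile bundles, called stress fibres, that end in large adhesions, whereas mESCs grow as compact colonies with few of them. Kinases and formins set the assembly of filaments, and the monomer pool in turn controls MRTF, the partner of the transcription factor SRF at many of these genes.

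Most of the genes were lower in mESCs than in MEFs. Of the 50 that passed a filter on low counts, which a gene high in only 1 cell type can pass, 42 (84.0%) were lower in mESCs, 2 (4.0%) were higher and 6 did not pass the test (edgeR's quasi-likelihood test, Benjamini-Hochberg adjusted p under 0.05 over 16580 genes). Over all tested genes, 25.0% were lower and 22.8% higher in mESCs. The median log2 fold change, mESC over MEF, was -1.90 for the 50 genes and 0.04 for all genes tested. A fall of more than 2-fold was found for 37 of the 50 genes, against 19.9% of all genes, and a fall of more than 8-fold for 12, against 6.78%. For each of the 42 lower genes every mESC library lay below every MEF library, a pattern found in 26.3% of all genes. Every mESC library lay above every MEF library for 3 genes (Ezr, Diaph1 and Csrp2), against 25.8% of all genes. The 2 genes that rose were Ezr, which ties the membrane to actin, and Diaph1, a formin. The members not called were Pxn, Tns3, Csrp2, Rock1, Diaph3 and Srf. The fall left a measurable level in mESCs. The lowest mean level there was 2.79% of that in MEFs, for Parva, and 47 of the 50 genes had more than 5% of the MEF level, whereas the 10 fibroblast markers had a median of 1.01%. The markers of fibroblasts and of smooth muscle moved with the group. Summed over their 10 genes, the fibroblast markers stood at 23109.5 to 40152 CPM in MEF libraries and 160.2 to 184 CPM in mESC libraries, and the 5 smooth muscle markers at 5642 to 6878 and 37.1 to 51.9 CPM, with no marker of either list at 0 in all libraries of a cell type. Their part in the result was not tested. In bulk libraries of this kind, fewer cells of a type and less RNA per cell cannot be told apart, and all values are relative to the other transcripts of a library.

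Scaling shifted the whole comparison. Without scaling beyond library size, the median of all genes moved up by 0.28 on the log2 scale, the balance over all genes turned to 5205 higher (31.4%) and 3334 lower (20.1%), and 38 of the 50 genes were lower and 3 higher. The median of the 50 was then -1.62, against 0.32 for all genes.

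**Figure D1:**
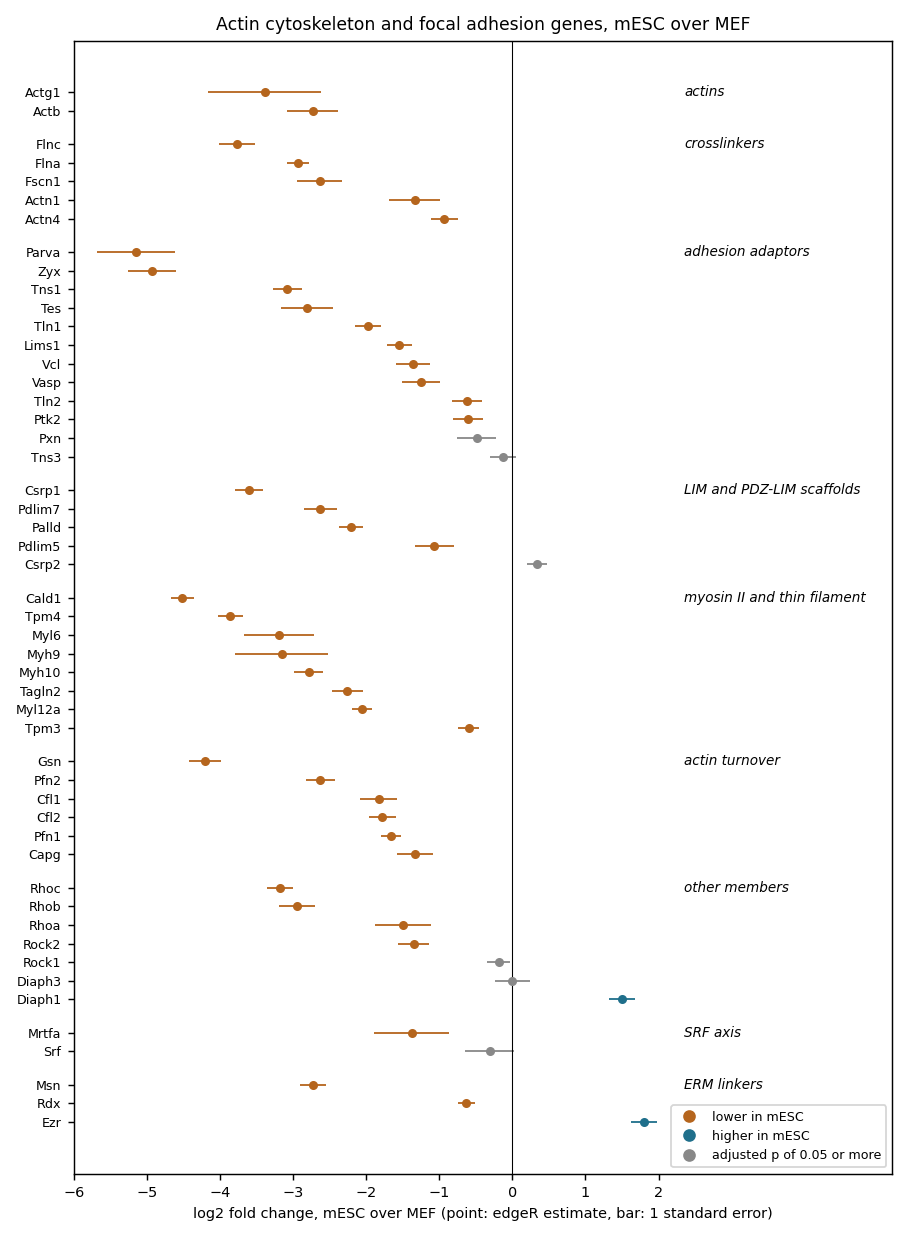
Log2 fold change of mESC over MEF for the 50 tested genes, grouped by role, with the edgeR estimate as a point and 1 standard error as a bar. Values ran from -5.15 for Parva to 1.80 for Ezr, and all genes of the actin, crosslinker, myosin and turnover groups lay below 0.

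Srf, the transcription factor that binds the CArG box of many actin genes, was detected at a low level and did not pass the test. Srf had 8.16, 14.3, 7.56 and 11.8 CPM in the MEF libraries and 7.79, 6.36 and 11.1 CPM in the mESC libraries. The libraries of the cell types overlapped, and the log2 fold change was -0.31 ± 0.34 (SE, edgeR adjusted p = 0.492). Mrtfa, its actin-sensing coactivator, was lower in mESCs. Mrtfa had 5.86, 5.95, 6.72 and 5.41 CPM in the MEF libraries and 0.649, 3.63 and 2.59 CPM in the mESC libraries. With a log2 fold change of -1.38 ± 0.52 (SE, edgeR adjusted p = 0.0475) it was close to the threshold. The call was lost under 3 other scalings (log2 fold change -1.36 to -1.10) and without any of 6 of the 7 libraries taken out in turn, where the fold change was -1.33 to -1.49 in 5 of them and -0.94 without the mESC library of 8193825 counts. Every mESC library was nevertheless below every MEF library. The other MRTF gene, Mrtfb, was also lower (15.6 ± 3.74 CPM in mESCs and 47.9 ± 4.18 in MEFs, SD; log2 fold change -1.62, edgeR adjusted p = 0.000108).

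Many of the members are textbook targets of SRF, and the promoters of the group were read for its motif. Whether SRF had a part in the fall was not tested. Promoters of 250 bases before to 50 bases after the start site were found for 43 of the 51 genes in the RefSeq table of GRCm38.p6. The other 8 were not read, so a member not named below need not lack the motif. A gene was counted if any of its promoters held the motif. A CArG box without mismatch, on either strand, stood in the promoters of 4 genes (9.30%). The share was 1.63% of 32851 promoters, 1.81% of all genes with a promoter and 1.64% of tested genes. The stretches around these boxes are shown 5′ to 3′ on the strand of the gene, with the boxes in capitals.
Actg1, GRCm38.p6 chr11:120348536-120348625, minus strand: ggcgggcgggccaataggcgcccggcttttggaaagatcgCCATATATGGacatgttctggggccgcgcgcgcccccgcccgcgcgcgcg
Myl6, GRCm38.p6 chr10:128493010-128493099, minus strand: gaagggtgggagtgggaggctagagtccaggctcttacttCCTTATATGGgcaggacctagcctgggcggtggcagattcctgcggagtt
Vcl, GRCm38.p6 chr14:20929148-20929220, plus strand: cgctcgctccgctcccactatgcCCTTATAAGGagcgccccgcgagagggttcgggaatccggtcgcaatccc
Srf, GRCm38.p6 chr17:46556175-46556284, minus strand: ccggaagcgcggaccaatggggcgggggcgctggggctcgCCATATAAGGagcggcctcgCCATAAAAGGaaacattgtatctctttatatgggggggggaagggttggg
The box of Actg1 began 90 bases, that of Myl6 50 bases and that of Vcl 227 bases before the RefSeq start site, and Srf held a pair of boxes at 82 and 62 bases. Of the 4 genes, Actg1, Myl6 and Vcl were lower in mESCs and Srf did not pass the test. With 1 mismatch allowed, 15 of the 43 genes had a match (34.9%), against 23.8% of all genes with a promoter and 19.9% of tested genes. GGAATG, the core of the TEAD motif, was found in 10 (23.3%), against 16.6% of all genes with a promoter and 14.7% of tested genes. GGGCGG, the GC box of SP factors, was found in 36 (83.7%), against 38.2% of all genes with a promoter and 66.9% of tested genes. These windows may overlap for genes with several start sites, and a match is a description of the sequence only. Ezr, which moved the other way, held no CArG box in its window, also with 1 mismatch. This did not set it apart, as most of the 43 genes had no match either. The lower genes Zyx, Tpm4, Rhoc and Msn were among those without one. The 250 bases before the start site of Ezr are shown with the GC boxes, at 48 and 17 bases, in capitals.
Ezr, GRCm38.p6 chr17:6782781-6783030, minus strand: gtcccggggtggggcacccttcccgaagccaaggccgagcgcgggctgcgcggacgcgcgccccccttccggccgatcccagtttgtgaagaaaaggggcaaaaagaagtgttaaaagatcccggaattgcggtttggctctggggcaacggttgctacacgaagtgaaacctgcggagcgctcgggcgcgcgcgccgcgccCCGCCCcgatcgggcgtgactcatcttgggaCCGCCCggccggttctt

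Both cytoplasmic actins were lower in mESCs. Actb, which encodes β-actin (chromosome 5, 142903115 to 142906754, minus strand, GRCm38), had 34276, 46368, 29267 and 18991 CPM in the MEF libraries and 5449, 6491 and 2611 CPM in the mESC libraries. The log2 fold change was -2.73 ± 0.35 (SE, edgeR adjusted p = 9.44e-05), a 6.63-fold difference. Actb alone took 1.83% to 4.15% of all counts in MEF libraries and 0.297% to 0.710% in mESC libraries. The 51 genes together took 3.48% to 6.48% in MEFs and 0.823% to 1.33% in mESCs, and without Actb 1.65% to 2.46% and 0.526% to 0.623%. Actg1, which encodes γ-actin, had 278, 497, 50.7 and 182 CPM in the MEF libraries and 13.4, 9.65 and 49.1 CPM in the mESC libraries. Its lowest MEF library, of 9176467 counts, was close to its highest mESC library, of 7462710 counts, and the MEF libraries alone spanned 9.80-fold. Actg1 was lower in mESCs, with a log2 fold change of -3.39 ± 0.77 (SE, edgeR adjusted p = 0.00414), and the change was -4.45 without the mESC library of 7462710 counts. Of the 3′ end of Actg1, 11.8% of 50-base words also occur in other annotated genes, and 13.4% of that of Actb. Over all transcripts of Actg1 the share was 37.4%. Only uniquely mapped reads were counted, and how this affected the counts of the actins was not tested.

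All 5 genes of proteins that crosslink or bundle filaments were lower in mESCs. The largest change was that of Flnc, a filamin best known from muscle, and it had 57.4, 81.8, 61.3 and 58.4 CPM in the MEF libraries and 5.95, 4.54 and 3.65 CPM in the mESC libraries. All MEF libraries were far higher, with a log2 fold change of -3.77 ± 0.25 (SE, edgeR adjusted p = 7.99e-07). Flna, the broadly expressed filamin, had 370.0, 491, 435 and 446 CPM in the MEF libraries and 56.4, 58.6 and 55.1 CPM in the mESC libraries. The mESC libraries lay within a narrow band, and the log2 fold change was -2.94 ± 0.15 (SE, edgeR adjusted p = 1.45e-07). Fscn1 (fascin), which packs filaments into the bundles of filopodia, had 686, 694, 455 and 294 CPM in the MEF libraries and 98.9, 90.4 and 66.1 CPM in the mESC libraries. The MEF libraries were spread but all higher, with a log2 fold change of -2.64 ± 0.30 (SE, edgeR adjusted p = 4.31e-05). The α-actinins, which hold stress fibre filaments side by side, had smaller fitted changes. Actn1 had 299, 267, 287 and 165 CPM in the MEF libraries and 87.8, 50.5 and 163 CPM in the mESC libraries. The mESC library of 7462710 counts came close to the lowest MEF library, and Actn1 had a log2 fold change of -1.34 ± 0.35 (SE, edgeR adjusted p = 0.00968). Actn4 had 286, 313, 203 and 210.4 CPM in the MEF libraries and 137, 142 and 117 CPM in the mESC libraries. The groups did not overlap for Actn4, which had a log2 fold change of -0.93 ± 0.18 (SE, edgeR adjusted p = 0.00176), and 34.8% of its 3′ end overlaps exons of Capn12.

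The adaptor genes of focal adhesions ranged most widely, from the largest fall in the whole group to no detectable difference. Of 13 genes, 10 were lower, 2 did not pass the test and Ilk could not be tested, and the median log2 fold change of the 12 tested was -1.46. Parva, which encodes α-parvin (chromosome 7, 112427505 to 112591692, plus strand, GRCm38), had 154, 191, 172 and 193 CPM in the MEF libraries and 10.2, 1.36 and 3.30 CPM in the mESC libraries. Every mESC library was far below the MEF libraries, but the mESC libraries differed among themselves by 7.47-fold. The log2 fold change was -5.15 ± 0.53 (SE, edgeR adjusted p = 2.05e-05), a 35.5-fold difference, and without the mESC library of 8193825 counts it was -6.25. Zyx (chromosome 6, 42349630 to 42360213, plus strand, GRCm38), whose product zyxin gathers on stress fibres and adhesions under tension, had 474, 533, 279 and 264 CPM in the MEF libraries and 16.3, 11.2 and 10.5 CPM in the mESC libraries. No library came between the groups, and the log2 fold change was -4.93 ± 0.33 (SE, edgeR adjusted p = 9.23e-07), a 30.4-fold difference.

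α-Parvin acts in a complex with ILK and PINCH1. Lims1, which encodes PINCH1, was lower with a log2 fold change of -1.55 (edgeR adjusted p = 2.93e-05). Ilk (chromosome 7, 105736592 to 105742925, plus strand, GRCm38) was almost uncounted, with 0, 0, 1 and 0 counts in MEFs and 1, 0 and 1 in mESCs, all under the floor of 3 counts (0.262 to 0.46 CPM), so no fold is given. The last 500 bases of its transcripts lie wholly opposite exons of Taf10, which itself had 4.46 to 10.2 CPM in MEFs and 12.2 to 16.7 CPM in mESCs. The part of this overlap in the low count was not tested. Vcl, the vinculin gene, is placed in the same way, with its 3′ end wholly opposite exons of Ap3m1. Nevertheless, it had 35.1, 25.2, 21.2 and 25.9 CPM in the MEF libraries and 10.2, 10.4 and 10.7 CPM in the mESC libraries. The mESC libraries were nearly equal to each other, with a log2 fold change of -1.36 ± 0.23 (SE, edgeR adjusted p = 0.000749), and it remains uncertain how the reads of such ends were assigned. Both genes of talin, the first link from integrin to actin, were lower. Tln1 had 264, 203, 257 and 197 CPM in the MEF libraries and 49.7, 57.5 and 67.4 CPM in the mESC libraries. Tln1 was clearly apart in the cell types, with a log2 fold change of -1.98 ± 0.18 (SE, edgeR adjusted p = 8.43e-06). Tln2 had 44.5, 47.5, 64.3 and 70.0 CPM in the MEF libraries and 34.2, 40.4 and 35.7 CPM in the mESC libraries. It differed little, with a log2 fold change of -0.62 ± 0.20 (SE, edgeR adjusted p = 0.0266). That call was lost without scaling (log2 fold change -0.34), with upper quartile scaling (-0.42) and without any of 4 libraries taken out in turn (-0.51 to -0.60).

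Among the remaining adaptors, the LIM protein gene Tes and the filament elongator gene Vasp were lower, with a log2 fold change of -2.81 (edgeR adjusted p = 8.05e-05) and a log2 fold change of -1.25 (edgeR adjusted p = 0.00255). The tensins, which bind integrin tails at long-lived adhesions, parted. Tns1 had 57.4, 68.4, 58.9 and 69.7 CPM in the MEF libraries and 8.44, 6.70 and 7.30 CPM in the mESC libraries. Every mESC library was below every MEF library, and the log2 fold change was -3.08 ± 0.19 (SE, edgeR adjusted p = 5.72e-07). Tns3 had 38.7, 45.6, 39.3 and 46.5 CPM in the MEF libraries and 45.2, 33.9 and 36.8 CPM in the mESC libraries. Its libraries overlapped, the log2 fold change was -0.13 ± 0.17 (SE, edgeR adjusted p = 0.568), and the sign turned with no scaling (0.15) and with upper quartile scaling (0.06). Ptk2, the focal adhesion kinase gene, was lower by a small margin, with a log2 fold change of -0.61 (edgeR adjusted p = 0.03), a call lost without scaling (-0.31), with upper quartile scaling (-0.41) and without any of 3 libraries (-0.45 to -0.58). Pxn, the paxillin gene, had 26.0, 18.6, 15.4 and 18.8 CPM in the MEF libraries and 15.9, 16.0 and 10.1 CPM in the mESC libraries. Its libraries overlapped, and the log2 fold change was -0.49 ± 0.27 (SE, edgeR adjusted p = 0.161).

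Of the 5 LIM and PDZ-LIM scaffold genes, 4 were lower in mESCs. Csrp1, a LIM-only protein of actin bundles, had 118, 115, 96.9 and 89.6 CPM in the MEF libraries and 9.41, 8.51 and 7.89 CPM in the mESC libraries. All 3 mESC libraries were below 10 CPM, and the log2 fold change was -3.60 ± 0.19 (SE, edgeR adjusted p = 1.84e-07). Csrp2, its close relative, had 131, 117, 128 and 131 CPM in the MEF libraries and 177, 150.3 and 152 CPM in the mESC libraries. Here every mESC library was above every MEF library. The log2 fold change of 0.34 ± 0.14 (SE, edgeR adjusted p = 0.0602) missed the threshold, and the gene passed it as higher in mESCs under DESeq2 (0.36), with DESeq2 size factors (0.36), with upper quartile scaling (0.53) and without scaling (0.62). Pdlim7 had 284, 298, 217 and 215 CPM in the MEF libraries and 50.9, 29.3 and 41.9 CPM in the mESC libraries. Pdlim7 was lower in every mESC library, with a log2 fold change of -2.63 ± 0.23 (SE, edgeR adjusted p = 5.41e-06). Pdlim5 had 97.8, 98.2, 59.6 and 45.8 CPM in the MEF libraries and 37.0, 36.0 and 34.2 CPM in the mESC libraries. It changed less, with a log2 fold change of -1.07 ± 0.27 (SE, edgeR adjusted p = 0.00677). Palld, which encodes the stress fibre scaffold palladin, was lower with a log2 fold change of -2.21 (edgeR adjusted p = 1.7e-06).

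All 8 genes of myosin II and the thin filament were lower in mESCs, with a median log2 fold change of -2.98. Cald1 (caldesmon, chromosome 6, 34598500 to 34775473, plus strand, GRCm38), which binds actin and tropomyosin and restrains myosin, had 2825, 2488, 2242 and 2187 CPM in the MEF libraries and 112, 91.5 and 114 CPM in the mESC libraries. The error was small beside the change, and the log2 fold change was -4.52 ± 0.16 (SE, edgeR adjusted p = 1.64e-08), a 22.9-fold difference. Tpm4, a tropomyosin that coats stress fibre filaments, had 951, 927, 656 and 782 CPM in the MEF libraries and 59.8, 55.1 and 56.3 CPM in the mESC libraries. The mESC libraries again lay close together, and the log2 fold change was -3.86 ± 0.17 (SE, edgeR adjusted p = 5.82e-08). Tpm3 had 414, 365, 353 and 283 CPM in the MEF libraries and 236, 229 and 231 CPM in the mESC libraries. It was lower by far less, with a log2 fold change of -0.60 ± 0.15 (SE, edgeR adjusted p = 0.00614), and was not called without scaling (-0.32). Of its 3′ end, 26.8% of 50-base words occur in other genes. The small actin-binding protein gene Tagln2 was lower with a log2 fold change of -2.26 (edgeR adjusted p = 1.03e-05).

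Transcripts of the myosin II heavy and light chains were lower alike. Myh9, the heavy chain of non-muscle myosin IIA, had 7269.5, 6351, 6463 and 1911 CPM in the MEF libraries and 482, 1193 and 168 CPM in the mESC libraries. The MEF library of 6528643 counts was low, and the mESC libraries spanned 7.12-fold. Myh9 had a log2 fold change of -3.16 ± 0.64 (SE, edgeR adjusted p = 0.002), and it was -4.08 without the mESC library of 8057985 counts. Myh10, the heavy chain of myosin IIB, had 329, 294, 485 and 369 CPM in the MEF libraries and 48.8, 51.4 and 59.1 CPM in the mESC libraries. These libraries agreed more closely, and the log2 fold change was -2.79 ± 0.20 (SE, edgeR adjusted p = 1.45e-06). Myl6, the essential light chain gene, was lower with a log2 fold change of -3.20 (edgeR adjusted p = 0.000288). Its mESC libraries (163, 70.7 and 27.6 CPM) spanned 5.90-fold, the change was -4.03 without the mESC library of 8193825 counts, and 28.6% of the 50-base words of its 3′ end occur in other genes. Myl12a, a regulatory light chain gene, was lower with a log2 fold change of -2.06 (edgeR adjusted p = 9.82e-07). Of its 3′ end, 20.9% overlaps exons of Myl12b on the same strand.

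The 6 genes of actin turnover were all lower, with a median log2 fold change of -1.81. Gsn encodes gelsolin, which cuts filaments and caps them, and it had 155, 152, 201 and 161 CPM in the MEF libraries and 7.79, 7.95 and 11.2 CPM in the mESC libraries. The log2 fold change was -4.21 ± 0.21 (SE, edgeR adjusted p = 1.44e-07), an 18.6-fold difference. Capg, a capping relative of gelsolin that does not cut, had 23.9, 20.2, 23.3 and 28.8 CPM in the MEF libraries and 7.36, 11.4 and 9.89 CPM in the mESC libraries. The groups stayed apart with a smaller change, and the log2 fold change was -1.33 ± 0.25 (SE, edgeR adjusted p = 0.00114). The genes of the cofilins, which sever old filaments, both fell. Cfl1 had 958, 689, 786 and 462 CPM in the MEF libraries and 189.9, 263 and 158 CPM in the mESC libraries. Cfl1 varied within both cell types without overlap between them and had a log2 fold change of -1.83 ± 0.26 (SE, edgeR adjusted p = 0.000175), and 24.4% of its 3′ end overlaps exons of Snx32. Cfl2, the form typical of muscle, had 295, 328, 261 and 204 CPM in the MEF libraries and 80.9, 84.5 and 71.3 CPM in the mESC libraries. Cfl2 had a log2 fold change of -1.78 ± 0.18 (SE, edgeR adjusted p = 2e-05). Profilins hand monomers to growing filaments. Pfn1 had 1636, 1487, 1361 and 1214 CPM in the MEF libraries and 479.8, 403 and 464 CPM in the mESC libraries. Pfn1 was even within each cell type and lower in mESCs, with a log2 fold change of -1.66 ± 0.14 (SE, edgeR adjusted p = 3.8e-06). Pfn2 had 57.5, 64.4, 72.0 and 59.0 CPM in the MEF libraries and 10.6, 11.8 and 8.13 CPM in the mESC libraries. Pfn2 had a larger fitted fall, with a log2 fold change of -2.63 ± 0.20 (SE, edgeR adjusted p = 2.4e-06). In none of the 6 genes did a library of one cell type reach the range of the other.

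The genes Rhoa, Rhob and Rhoc were each lower in mESCs. Rhoc had 461, 526, 458 and 502 CPM in the MEF libraries and 66.4, 50.6 and 43.1 CPM in the mESC libraries. No library came between the cell types, with a log2 fold change of -3.18 ± 0.18 (SE, edgeR adjusted p = 2.82e-07). Rhob had 39.0, 45.6, 48.6 and 41.1 CPM in the MEF libraries and 7.25, 3.97 and 5.54 CPM in the mESC libraries. Rhob fell with a log2 fold change of -2.95 ± 0.25 (SE, edgeR adjusted p = 4.73e-06). Rhoa, the GTPase that drives stress fibre assembly, had 762, 907, 839 and 478 CPM in the MEF libraries and 265, 418 and 107 CPM in the mESC libraries. The mESC libraries were widely spread, with the highest just under the lowest MEF library, and the log2 fold change was -1.5 ± 0.39 (SE, edgeR adjusted p = 0.0082). Of the kinases that activate myosin II, Rock2 had 245, 254, 169 and 171 CPM in the MEF libraries and 77.7, 67.0 and 101 CPM in the mESC libraries. Rock2 was lower in every mESC library, with a log2 fold change of -1.35 ± 0.21 (SE, edgeR adjusted p = 0.000406). Rock1 had 391, 294, 355 and 334 CPM in the MEF libraries and 252, 288 and 361 CPM in the mESC libraries. Its libraries overlapped, the log2 fold change was -0.19 ± 0.16 (SE, edgeR adjusted p = 0.359), and the sign turned without scaling (0.10) and with upper quartile scaling (0.01).

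The Diaphanous formins, which lengthen unbranched filaments, did not share the fall of most members. Diaph1 (chromosome 18, 37843601 to 37935476, minus strand, GRCm38) had 26.2, 22.4, 30.2 and 20.1 CPM in the MEF libraries and 74.7, 65.4 and 70.4 CPM in the mESC libraries. Every mESC library was more than 2-fold above every MEF library, and the log2 fold change was 1.5 ± 0.18 (SE, edgeR adjusted p = 6.09e-05). Diaph3 had 32.1, 26.6, 19.1 and 34.2 CPM in the MEF libraries and 23.0, 30.6 and 30.2 CPM in the mESC libraries. Its libraries overlapped, and the log2 fold change was 0.00 ± 0.23 (SE, edgeR adjusted p = 0.995), with a sign that changed between settings.

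The ERM proteins link actin to the plasma membrane, and the genes of this family moved in opposite directions. Ezr (ezrin, chromosome 17, 6738041 to 6782784, minus strand, GRCm38), the form typical of epithelia, had 41.9, 36.6, 25.5 and 33.7 CPM in the MEF libraries and 126, 121 and 113 CPM in the mESC libraries. The lowest mESC library stood far above the highest MEF library, and the log2 fold change was 1.80 ± 0.18 (SE, edgeR adjusted p = 1.74e-05), the largest rise of the 50 genes. Msn (moesin) had 249, 225, 217 and 170.0 CPM in the MEF libraries and 31.1, 31.6 and 34.3 CPM in the mESC libraries. It was lower in every mESC library, with a log2 fold change of -2.73 ± 0.18 (SE, edgeR adjusted p = 6.63e-07). Rdx (radixin) had 643, 666, 694 and 668 CPM in the MEF libraries and 396, 441 and 457 CPM in the mESC libraries. Its fall was small but even across libraries, with a log2 fold change of -0.63 ± 0.11 (SE, edgeR adjusted p = 0.000945). The epithelial markers Cdh1 and Epcam, also higher in mESCs, moved with Ezr (log2 fold changes 4.74 and 4.48), whereas Krt18 and Krt19 were lower (-1.49 and -2.27) and Krt5, Krt8 and Krt14 did not pass the test. Summed over the 7 epithelial markers, the level was 128 to 161 CPM in MEFs and 406 to 465 CPM in mESCs, and none was at 0 in all libraries of a cell type. Their part in the rise of Ezr was not tested.

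**Figure D2:**
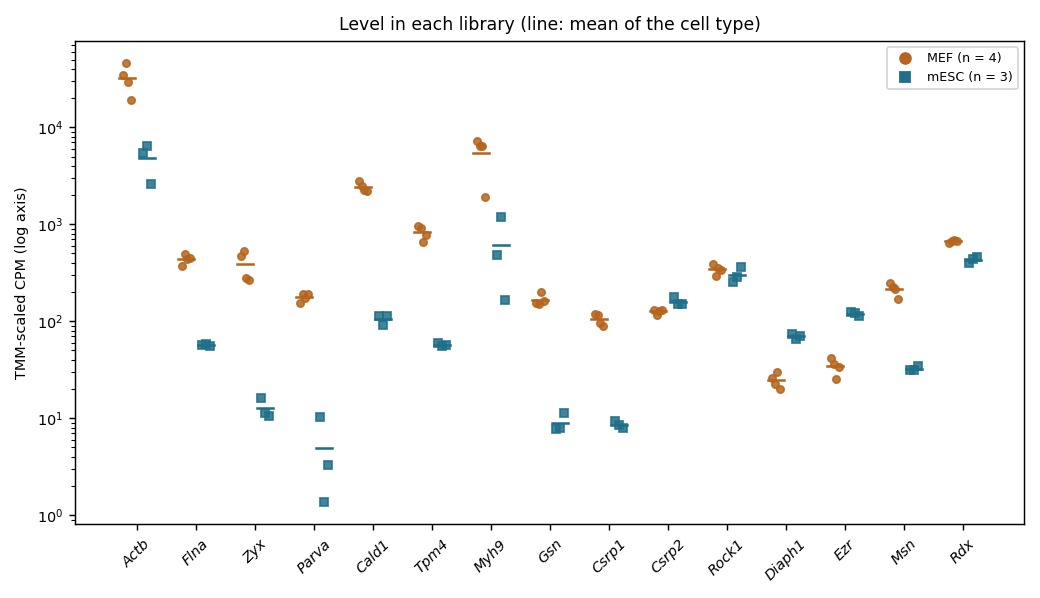
TMM-scaled CPM on a log axis in each of the 4 MEF libraries (circles) and 3 mESC libraries (squares) for 15 members, with a line at the mean of each cell type. The mESC libraries lie below the MEF libraries for all genes shown other than Csrp2, Diaph1 and Ezr, where they lie above, and Rock1, where they overlap.

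Related genes were then compared within each library, as the log2 CPM of one minus that of the other. The level of this balance depends on how each 3′ end was captured, so only its shift from MEFs to mESCs is read, with an exact two-sided permutation test of the cell type labels (35 arrangements, smallest p 0.0286) adjusted over 20 pairs. The balance shifted in 13 of 20 pairs, each with p = 0.0286 and adjusted p = 0.044 in the exact permutation test. The same test was not run on arbitrary gene pairs, so no background share is given for this count. Of all single genes tested, 26.3% had every mESC library below every MEF library, and 25.8% had every one above. The count is therefore not read as a property of related genes. As no smaller p is possible, the size of the shift and the spread separate these pairs. The adjusted p is the same for all of them and depends on how many pairs reached the smallest p, so they pass or fail together. Pairs that share a gene are not independent, and Ezr, Msn and Rdx enter with all their pairs.

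Ezr minus Msn was -2.57, -2.61, -3.08 and -2.32 in the MEF libraries and 2.01, 1.93 and 1.71 in the mESC libraries. The balance moved from moesin towards ezrin by 4.53 on the log2 scale, a 23.0-fold shift and the widest of all. Csrp1 minus Csrp2 was -0.15, -0.02, -0.40 and -0.55 in the MEF libraries and -4.20, -4.10 and -4.23 in the mESC libraries. It moved by -3.90, from Csrp1 towards Csrp2. Tpm3 minus Tpm4 was -1.20, -1.34, -0.89 and -1.47 in the MEF libraries and 1.97, 2.05 and 2.03 in the mESC libraries. Here the shift was 3.25 towards Tpm3, with 0.0423 SD among mESC libraries. Tns1 minus Tns3 was 0.57, 0.58, 0.58 and 0.58 in the MEF libraries and -2.39, -2.30 and -2.29 in the mESC libraries. The MEF libraries agreed to within 0.01, and the shift was -2.91, towards Tns3. Gsn minus Capg was 2.68, 2.90, 3.10 and 2.47 in the MEF libraries and 0.08, -0.50 and 0.17 in the mESC libraries. This was a shift of -2.87, towards Capg.

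The other shifted pairs were Ezr against Rdx (2.44), Msn against Rdx (-2.08), Pdlim5 against Pdlim7 (1.65), Rhoa against Rhoc (1.54), Tln1 against Tln2 (-1.38), Rock1 against Rock2 (1.15), Pfn1 against Pfn2 (0.96) and Flna against Flnc (0.79). A value above 0 means that the gene named first gained on the second from MEFs to mESCs. The remaining 7 pairs did not pass. Diaph1 against Diaph3 shifted by 1.49 with libraries that did not overlap (p = 0.0571, adjusted p = 0.0816, exact permutation test), and Rhoa against Rhob by 1.28 (p = 0.0857, adjusted p = 0.114, exact permutation test). The differences were -0.05 for Cfl1 against Cfl2, 0.26 for Rhob against Rhoc, -0.54 for Actn1 against Actn4, 0.57 for Actb against Actg1 and -0.64 for Myh9 against Myh10. For the actins the balance varied by 1.92 (SD) among mESC libraries and for the myosins by 1.52, so shifts of this size could not be resolved there.

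**Figure D3:**
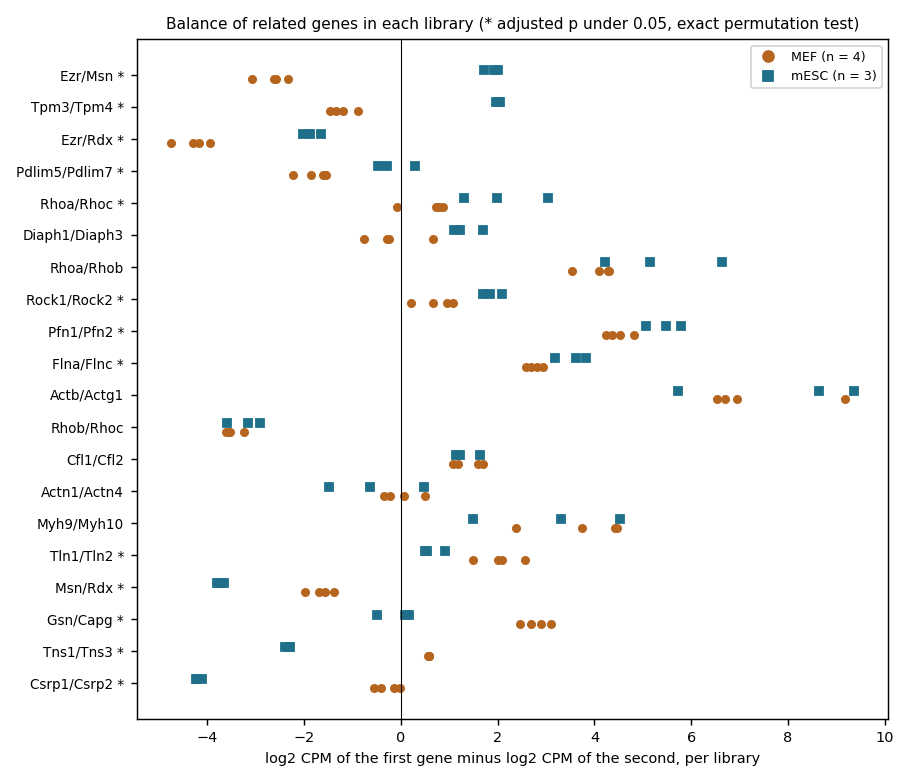
Log2 CPM of the first gene minus that of the second in each MEF library (circles) and mESC library (squares) for 20 pairs, ordered by the shift, with an asterisk at an adjusted p under 0.05. Ezr/Msn at the top moves up by 4.53 and Csrp1/Csrp2 at the bottom down by 3.90, while Cfl1/Cfl2 overlaps with a difference of -0.05.

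Another 84 genes of actin assembly, adhesion and their regulation were set beside them. Of 83 tested, 51 (61.4%) were lower in mESCs, 8 (9.64%) were higher and 24 did not pass the test. The shares over all tested genes were 25.0% lower and 22.8% higher. The median log2 fold change was -0.82, against -1.90 for the 50 genes above and 0.04 for all genes. The Arp2/3 complex, which starts branched filaments, had 6 of 9 subunits lower and none higher, with the largest fall in Arpc1b (466 ± 69.4 CPM in MEFs and 108 ± 16.2 in mESCs, SD, log2 fold change -2.10, edgeR adjusted p = 3.21e-06). Its activators of the WAVE and WASP families were split, with 5 of 10 lower and 2 higher. Within the WAVE complex, Cyfip2 rose (1.66 ± 1.18 CPM in MEFs and 16.8 ± 1.5 in mESCs, SD, log2 fold change 3.27, edgeR adjusted p = 0.000166) and its relative Cyfip1 fell the most of this list (144 ± 10.5 CPM in MEFs and 72.3 ± 9.39 in mESCs, SD, log2 fold change -0.99, edgeR adjusted p = 0.000344). Wasf3, a WAVE gene, was the other riser. Of 15 genes for capping, monomer binding and disassembly, 12 were lower, led by Cap2 (11.2 ± 3.63 CPM in MEFs and 0.903 ± 0.683 in mESCs, SD, log2 fold change -3.60, edgeR adjusted p = 0.000619), and 1 was higher, the twinfilin gene Twf2 (16.7 ± 4.20 CPM in MEFs and 37.2 ± 5.36 in mESCs, SD, log2 fold change 1.16, edgeR adjusted p = 0.00171).

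Of 27 further adaptor genes tested, 14 (51.9%) were lower and 4 (14.8%) higher, against 25.0% and 22.8% of all tested genes. Tgfb1i1, which encodes the paxillin relative Hic-5, had the largest fall (197 ± 4.33 CPM in MEFs and 2.01 ± 0.774 in mESCs, SD, log2 fold change -6.59, edgeR adjusted p = 3.42e-08), and Parvb, the β-parvin gene, the largest rise (6.68 ± 1.77 CPM in MEFs and 28.2 ± 3.26 in mESCs, SD, log2 fold change 2.08, edgeR adjusted p = 7.81e-05). α-Parvin and β-parvin genes thus differed in direction, a comparison made after their values were seen. Evl could not be tested.

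**Figure D4:**
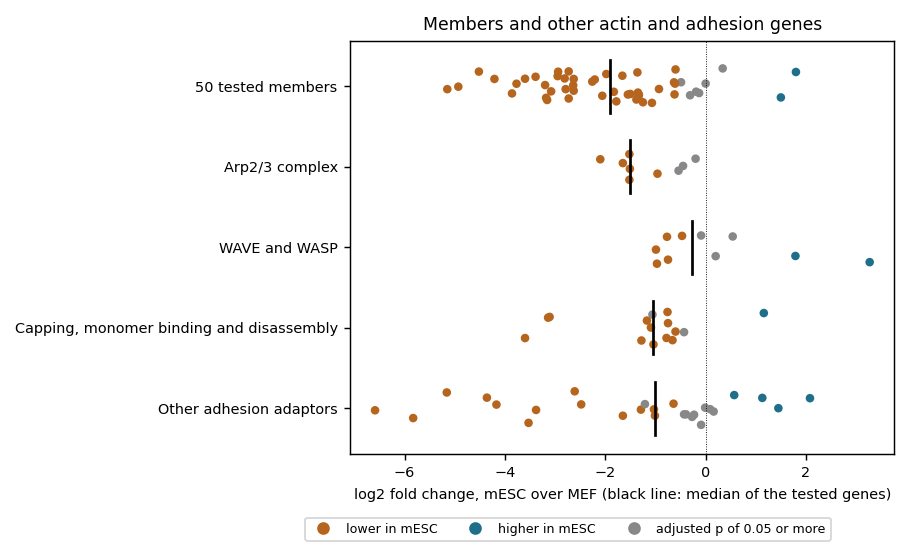
Log2 fold change of mESC over MEF for the 50 tested members and for 4 lists of other actin and adhesion genes, 1 point per gene, with a black line at the median of each list. The medians lie at -1.90 for the members, -1.51 for the Arp2/3 complex, -0.28 for WAVE and WASP, -1.04 for capping and disassembly and -1.01 for other adaptors.

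Libraries of a cell type were not equal in these genes. The MEF library of 6528643 counts was the lowest MEF library for 22 of the 50 genes, and its share of counts on the 51 genes was 3.48%, against 4.74% to 6.48% in the others. Among the mESC libraries, that of 7462710 counts had the smallest share (0.823%, against 1.19% and 1.33%). The highest library was more than 2-fold above the lowest of the same cell type for 9 genes in MEFs and 8 in mESCs, and more than 5-fold for Actg1 in MEFs and for Actg1, Parva, Myh9, Myl6 and Mrtfa in mESCs. With any 1 library left out, 40 to 41 genes were lower and 2 higher. Leaving out the 9 genes whose 3′ ends share over 10% of their bases or 50-base words with other genes (Actb, Actg1, Actn4, Vcl, Ilk, Myl6, Myl12a, Tpm3 and Cfl1), a choice made after the data were seen, left 34 lower, 2 higher and 6 not called of 42, with a median of -1.88.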

How the data were processed

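Per the study's methods and labels, the authors sequenced 3′-end RNA libraries of 4 MEF and 3 mESC samples, used STAR (2.4.2a in the submitters' processing notes, a later version in the methods) for alignment to mm10 after demultiplexing and trimming, merged reads of the same molecular identifier with Je, let featureCounts count the unique reads in exons and deposited whole-number counts, not normalized. The annotation release and strand setting are not given in the sources used here, so genes that overlap on opposite strands cannot be told apart with certainty. Column names give the cell type but not which sample, so libraries are named by their totals, 6528643 to 11441278 counts. Each name also holds the same number after the cell type, and a letter that differs between MEFs and mESCs. What these mean is not stated, so separate cultures cannot be read from them. A floor of 3 counts was 0.262 to 0.46 CPM, for counting error only. 0 columns were left unused. No 2 libraries of a cell type agreed within sampling noise (chi-square per degree of freedom 15.6 to 31.1).

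Genes were tested with edgeR 4.0.16 (limma 3.58.1, R 4.3.3): TMM scaling, filterByExpr, the quasi-likelihood test with all 7 libraries and no covariate, and Benjamini-Hochberg adjustment over 16580 genes at 0.05. The balance of related genes used log2 CPM with a prior count of 2. On simulated counts for this comparison, 200 of 16002 tested genes were changed by 2 on the log2 scale, equally up and down. Of these, 146 were recovered, 136 of 150 among those above 5 CPM, with 16 false calls, and 0 calls were made with no gene changed. In the data 47.9% of tested genes were called, so the simulation does not check the scaling between the cell types. The members and lists were chosen with earlier results of these data known. All members may be named. Values for every library were given for the related pairs, the 5 largest changes in each direction, the largest change of each role and members not called, and from the other lists the largest called change in each direction. Mrtfb, Wasf3 and the markers were named beside them. Gene positions and overlaps of the last 500 bases are from GENCODE M21 on GRCm38, and promoter sequences from the RefSeq table of GRCm38.p6.

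The alternatives were DESeq2 1.42.0, 3 other scalings, no filter, a stricter filter of 10 counts, a test against a fold change of 2, each library left out in turn, a prior count of 0.5, CPM over library totals and a mismatch in the CArG box. Leaving out genes with shared 3′ ends was chosen after seeing the data. A planned comparison of protein sequences was not done. The counts for 1 role group and for 1 of the other lists are not reported here.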

Additional observations from a re-analysis of the deposited data

Results flagged for a closer look

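Flnc stood at 81.8 CPM in the MEF library of 7312679 counts, apart from the other 3 MEF libraries, which lay between 57.4 and 61.3 CPM. Its gap to the nearest library was 0.841 of the whole range of the MEF libraries, above Dixon's 95% critical value for 4 values. Of the 50 genes checked in this way it was the only one, where chance alone would give about 2.5. The mESC libraries, 3 in number, were not checked.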

How the results depend on the processing

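No paired analysis was possible because the number that ends each column name could not be tied to a numbered sample, and no source says that a shared number marks a shared batch. The count of members lower in mESCs, 42, was 42 under DESeq2, with no filter and with the stricter filter, 41 with DESeq2 size factors, 39 with upper quartile scaling, 38 without scaling, 29 in the test against a fold change of 2, 40 to 41 with 1 library left out, and 34 of 42 without genes of shared 3′ ends. The count of higher members was 2, or 3 under DESeq2 and the 3 other scalings. Tested against a fold change of 2, all genes gave 1714 higher and 2277 lower, and the other actin and adhesion genes 4 higher and 25 lower. With 1 library left out, all genes gave 3234 to 3619 higher and 3792 to 3916 lower, and the other list 8 higher and 45 to 52 lower. The 13 shifted pairs were 13 at the lower prior count of 0.5. Once a library is left out the exact test cannot reach the threshold. Of 700 fold changes of the 50 genes under the alternatives, 652 kept direction and call, 34 lost the call, 4 gained it and 10 changed sign. The sign changes were those of Tns3 (0.15 without scaling, 0.06 with upper quartile scaling), Rock1 (0.10 and 0.01) and Diaph3 (-0.03 with no filter, -0.02 with the stricter filter, -0.15 to 0.12 with 1 library left out). Of 160 values of the related pairs, 6 changed sign, for Actb and Actg1 (-0.16 to 1.66 with 1 library left out), Myh9 and Myh10 (-1.35 to 0.16) and Cfl1 and Cfl2 (-0.20 to 0.06). The cause of these changes was not tested. The CArG box count of 4 members was 15 with a mismatch allowed, as that motif is looser. Ilk had at most 1 count per library, so no difference could be measured for it. Comparison of protein sequences was not run.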
